A study of Mus musculus with 6 samples.

Results

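Leukaemia inhibitory factor (LIF) signalling and a pair of other genes of embryo implantation were followed in sorted cells of the mouse uterus. The 7 genes, of 26586 in the count table, were taken by symbol: the ligand gene Lif, the receptor chain genes Lifr, Il6st and Osmr, the transcription factor gene Stat3, the lysophosphatidic acid receptor gene Lpar3 and the transcriptional co-regulator gene Cited2. Total RNA depleted of ribosomal RNA was sequenced from 3 libraries of GFP-positive cells, labelled Axin2+, and 3 libraries of GFP-negative cells, labelled Axin2-, sorted from endometrial epithelial isolates of the same 3 mice. The labels number libraries by mouse but also speak of pooling, so ratios within mice below assume that equal numbers mean the same mouse. All mice carried both transgenes, Axin2rtTA and tetOH2BJGFP. Their ovaries were removed at the age of 4 weeks, doxycycline followed after 2 weeks of rest, and uteri were taken 4 days after that, when the mice were 6 weeks old. In this model rtTA, expressed from the Axin2 promoter, turns on a GFP fused to histone H2B once doxycycline is present. The GFP therefore records promoter activity during labelling, and because the histone fusion is stable it can outlast that activity. Both fractions lacked ovarian estrogen and progesterone alike, and no group with ovaries or with an embryo is among the libraries analysed here.

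As background, LIF is a cytokine of the interleukin-6 family that in the mouse is made by uterine glands around the time of implantation, after the rise of estrogen. It binds LIFR, which pairs with gp130, the shared chain encoded by Il6st. The pair activates Janus kinases, which phosphorylate STAT3, and STAT3 then induces genes that include its own inhibitor Socs3. Mice whose uterus lacks Lif carry blastocysts that do not implant. OSMR pairs with the same gp130 chain to bind oncostatin M. LPAR3 is a G protein-coupled receptor of the luminal epithelium that sets the timing and spacing of implantation in mice through prostaglandins. CITED2 binds the co-activators CBP and p300 and limits hypoxia-inducible factor.

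The promoters of 3 of these genes are shown, since Lifr and Lpar3 were the members that differed between the fractions and Lif was the member that varied most within one of them. They run from 250 bases before to 50 bases after the RefSeq start of transcription in GRCm38.p6. The promoters lie at chr11:4257318-4257617 for Lif, chr15:7129322-7129621 for the first of the 2 listed Lifr starts and chr3:146220711-146221010 for Lpar3, each on the plus strand. Capitals mark TGACTCA, the letters recognised by AP-1 factors such as FOS and JUN.
Lif: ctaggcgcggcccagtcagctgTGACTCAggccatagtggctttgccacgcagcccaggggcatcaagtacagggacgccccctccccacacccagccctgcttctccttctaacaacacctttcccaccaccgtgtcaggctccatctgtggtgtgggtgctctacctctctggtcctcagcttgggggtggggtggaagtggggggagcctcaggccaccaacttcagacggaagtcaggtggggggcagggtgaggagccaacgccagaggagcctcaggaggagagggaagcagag
Lifr: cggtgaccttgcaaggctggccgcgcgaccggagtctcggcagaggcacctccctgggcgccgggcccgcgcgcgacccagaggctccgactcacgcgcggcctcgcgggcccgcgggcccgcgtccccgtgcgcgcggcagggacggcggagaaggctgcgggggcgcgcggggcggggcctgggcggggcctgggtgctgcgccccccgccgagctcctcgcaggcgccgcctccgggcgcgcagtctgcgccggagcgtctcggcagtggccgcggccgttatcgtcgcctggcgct
Lpar3: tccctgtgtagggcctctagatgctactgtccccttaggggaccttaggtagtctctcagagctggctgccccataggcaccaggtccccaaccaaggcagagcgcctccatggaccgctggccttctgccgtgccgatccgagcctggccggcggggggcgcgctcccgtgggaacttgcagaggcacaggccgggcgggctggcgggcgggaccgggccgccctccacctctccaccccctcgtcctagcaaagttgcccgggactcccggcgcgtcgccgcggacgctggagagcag
The Lif promoter held TGACTCA once, at position -228 from the start, and 5.2% of 32851 promoters of this length hold it on either strand. Both RefSeq starts of Lifr lie downstream of its gene start in GENCODE M21, at chr15:7090614, where no promoter was taken. The 2 Lifr promoters differed in CpG pairs, a feature of promoters in CpG islands. The first held 53, more than 99.5% of all promoters, and 81.3% of its bases were G or C, while the second, at chr15:7140292-7140591, held 4, more than 31.4% of promoters. The Lpar3 promoter held 25 CpG pairs, more than 81.6% of promoters, and the Lif promoter held 7, more than 47.9% of them. The STAT-type letters TTCNNNGAA, searched on both strands with 3 or 4 bases between TTC and GAA, were in none of the 8 promoters of the 7 members. The form with 3 is in 8.3% of all promoters and that with 4 in 6.95%. The TEAD-type letters GGAATG were found in the Stat3 promoter alone among the members, at positions -241 and -8, both on the opposite strand as CATTCC, against 14.7% of all promoters. The grainyhead-type letters AACCGGTT were in no member and in 0.146% of all promoters. The AP-1, TEAD and grainyhead motifs were chosen after values of these data were seen, and no 2 of the printed matches overlap. A match is a run of letters and not a measured binding site.

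Counts summed to between 49714402 and 59597315 per library. The Axin2 transcript went against the labels, with 165, 243 and 299 CPM (counts scaled to a common library size with TMM factors) in libraries labelled Axin2+ of mice 1, 2 and 3, against 369, 357 and 356 CPM in libraries labelled Axin2-. Its log2 fold change, Axin2+ over Axin2-, was -0.61 ± 0.21 (SE; adjusted p = 0.071 by edgeR's quasi-likelihood test and 0.0331 by DESeq2), and 209 of its exonic bases are shared with the antisense gene Gm11670. The fractions also differed in cell type markers. Among all 16896 genes tested, 14.5% were called higher in libraries labelled Axin2+ and 12.8% lower, at an edgeR adjusted p under 0.05. All 10 epithelial markers (summed level 2280 to 3366 CPM in libraries labelled Axin2+ and 181 to 290 CPM in those labelled Axin2-), 4 of 4 gland markers (191 to 296 against 10.5 to 20.8 CPM), 4 of 4 luminal markers (403 to 587 against 28.7 to 73.0 CPM), 7 of 7 macrophage markers, 5 of 8 endothelial markers (221 to 308 against 179 to 225 CPM) and 3 of 5 mesothelial markers (166 to 471 against 174 to 224 CPM) were called higher in libraries labelled Axin2+. Called lower were 8 of 10 stromal fibroblast markers (2895 to 4322 against 10260 to 20520 CPM), 8 of 8 smooth muscle markers (174 to 293 against 2159 to 5880 CPM), 5 of 6 T and NK cell markers (0.585 to 1.86 against 24.0 to 33.7 CPM) and the mesothelial marker Wt1. Cdh5, the endothelial marker with the highest CPM, went the other way from the 5 endothelial markers called, with a log2 fold change of -0.82 (edgeR adjusted p = 0.0559, and 0.00947 with mouse as a block and 0.0149 by DESeq2). Summed macrophage markers stood at 3278, 1859 and 591 CPM in libraries labelled Axin2+ of mice 1, 2 and 3, against 188.5, 38.2 and 273 CPM in libraries labelled Axin2-. The macrophage count fell to 1 without the mouse 1 library labelled Axin2-, to 3 without that of mouse 2 labelled Axin2+ and with mouse as a block, and to 4 without that of mouse 1 labelled Axin2+ or that of mouse 3 labelled Axin2-. The endothelial count fell to 2 without the mouse 2 library labelled Axin2+ and to 3 without that of mouse 3 labelled Axin2- or with mouse as a block. Leaving out the mouse 2 library labelled Axin2+ or that of mouse 3 labelled Axin2- left 4 and 5 stromal markers called lower, and 3 T and NK cell markers were called lower without that of mouse 1 or of mouse 3 labelled Axin2-. Both fractions are labelled as endometrial epithelial cells. Summed stromal fibroblast markers exceeded summed epithelial markers in all 3 libraries labelled Axin2- and in those labelled Axin2+ of mice 2 and 3. Libraries labelled Axin2+ had 3100 against 3366, 2895 against 2755 and 4322 against 2280 CPM in mice 1, 2 and 3. Summed smooth muscle markers exceeded summed epithelial markers in the 3 labelled Axin2- alone. Such sums add CPM of different genes, not scaled for length, and do not give the share of cells of a type. The lowest markers included Cd3d, at 0 counts in libraries labelled Axin2+ of mice 2 and 3, and Cxcl15, at 0 counts in that of mouse 3 labelled Axin2-.

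All 7 genes passed the filter on low counts, and 2 of them, Lifr and Lpar3, were called higher in libraries labelled Axin2+ at an adjusted p under 0.05. Across the 16896 genes tested, 27.3% were called, 14.5% higher (2447) and 12.8% lower (2171), so the members' count is close to the background. Of all calls 53% were higher, and 67.4% were higher when libraries were scaled by library size alone (3255 higher and 1573 lower). No member was called lower by the main edgeR fit or by DESeq2, and none was lower at an unadjusted p under 0.05 in the main fit. The 3 values of one fraction lay wholly above those of the other for Lifr and Lpar3 and overlapped for the other 5 members, against 47.2% of tested genes without overlap, 23.9% with the libraries labelled Axin2+ higher and 23.2% with them lower. In sorted bulk samples such as these, fewer cells of a type and less RNA per cell cannot be told apart.

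**Figure D1:**
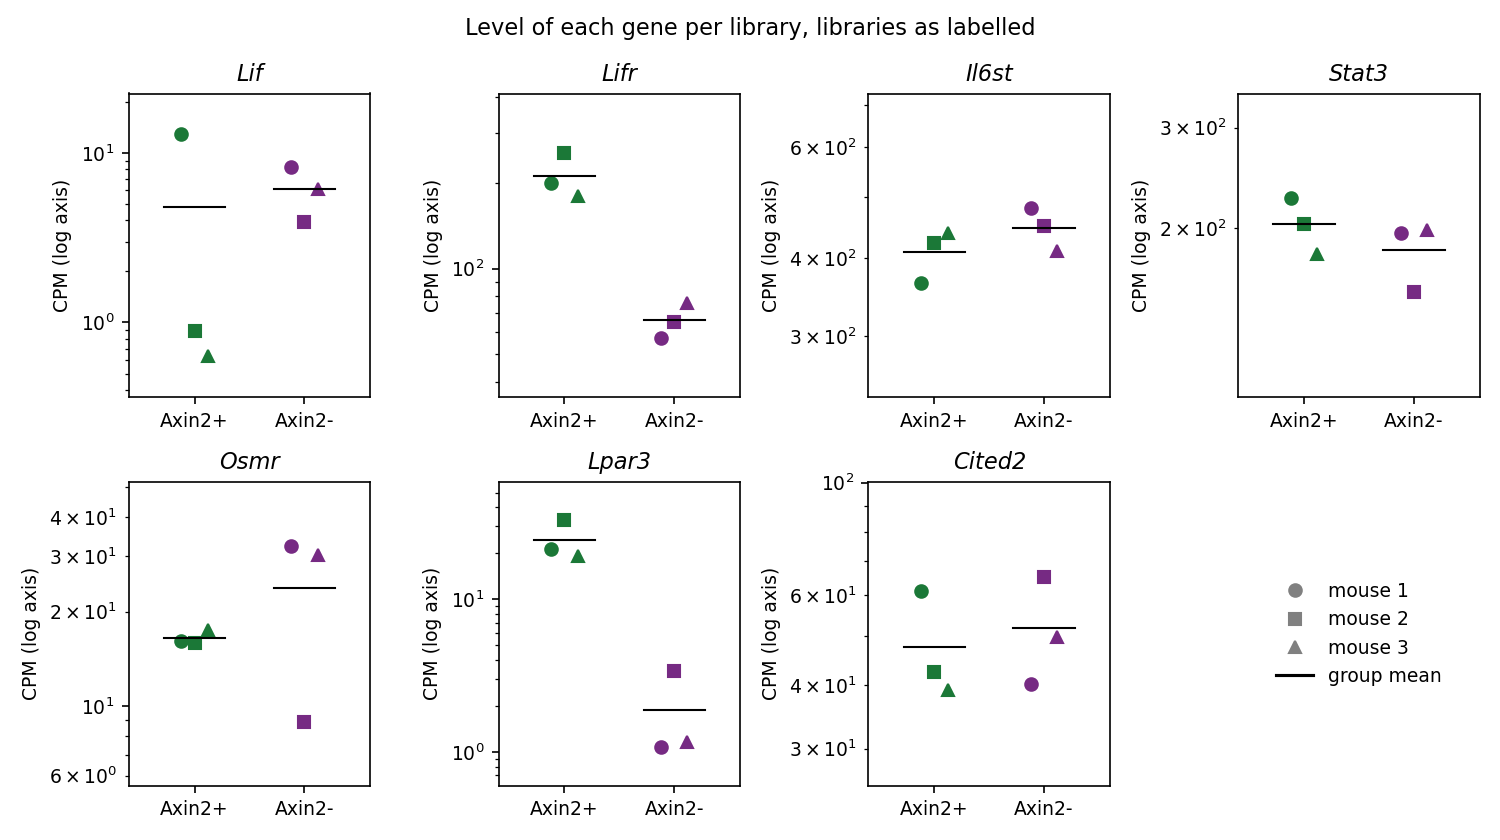
Level of each of the 7 genes in CPM on a logarithmic axis, 1 point per library numbered by mouse, with the mean of each fraction as a bar. Lifr and Lpar3 have no overlap between libraries labelled Axin2+ (left) and Axin2- (right), and Lif is spread from 0.633 to 12.8 CPM within libraries labelled Axin2+.

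Lif, the ligand (ENSMUSG00000034394, chr11:4257557-4272514, plus strand, mm10), was low in both fractions and uneven in one. It had 12.8, 0.887 and 0.633 CPM in libraries labelled Axin2+ of mice 1, 2 and 3, from 743, 47 and 34 counts. In libraries labelled Axin2- it had 8.24, 3.93 and 6.12 CPM, from 424, 225 and 297 counts. The mouse 1 library labelled Axin2+ was thus the highest of all 6, and the other 2 with that label were the lowest, a 20.3-fold range within 1 fraction. The SD of log2 CPM among libraries labelled Axin2+ was 2.34, wider than for 99.4% of tested genes, while among those labelled Axin2- it was 0.53, wider than for 73.2%. Lif averaged 4.78 ± 6.96 CPM in libraries labelled Axin2+, against 6.10 ± 2.16 CPM in libraries labelled Axin2- (SD, n = 3 each), a log2 fold change of -0.35 ± 1.06 (SE; edgeR adjusted p = 0.837). Within mice the log2 ratio was 0.64, -2.15 and -3.27 in mice 1, 2 and 3, so that 1 of 3 mice had more Lif in the cells labelled Axin2+. This comparison rested on single libraries. Without the mouse 1 library labelled Axin2+ the log2 fold change was -2.998 with an edgeR adjusted p of 0.00631, and without that of mouse 2 or 3 it was 0.15 or 0.17.

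Lif was not alone in standing high in the mouse 1 library labelled Axin2+. Its log2 level there exceeded the mean of the other 2 libraries with that label by 4.03, a gap that 44 of 16896 genes (0.26%) equalled or exceeded. Osm, which encodes oncostatin M, had a gap of 4.02, with 11.8, 0.680 and 0.707 CPM in libraries labelled Axin2+, against 1.87, 0.280 and 1.32 CPM in libraries labelled Axin2-. Hbegf, which encodes a heparin-binding growth factor that is an early epithelial sign of implantation at the site of the mouse blastocyst, had a gap of 3.08, with 212, 25.2 and 24.8 CPM in libraries labelled Axin2+, against 35.9, 28.7 and 34.9 CPM in libraries labelled Axin2-. The prostaglandin synthase gene Ptgs2, the immediate-early gene Fos, the kinase gene Pim1 and the feedback inhibitor gene Socs3 had gaps of 2.47, 2.26, 2.24 and 2.04. The macrophage receptor gene Csf1r stood 1.96 higher there too, and 522 genes (3.09%) reached that gap. The epithelial markers were split: Cldn4, Krt8, Elf3, Krt18, Krt19 and Cldn7 had gaps of 1.43, 1.02, 0.787, 0.653, 0.391 and 0.316. Cdh1, Esrp1, Epcam and Cldn3 had gaps of -0.00122, -0.0226, -0.22 and -0.412. These genes were named after their values were seen, and the part of macrophage or other cells in the Lif level was not tested.

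The 3 genes whose profile over the 6 libraries was nearest to that of Lif, by the root mean square (RMS) difference of mean-centred log2 CPM among 11076 genes of at least 5 CPM on average, were Cyr61, Rgs1 and Dusp8. Cyr61, an immediate-early gene for a secreted matrix protein (Ccn1 in newer tables), differed by an RMS of 0.31. It had 723, 32.2 and 23.5 CPM in libraries labelled Axin2+, against 425, 212 and 218 CPM in libraries labelled Axin2-. Rgs1, a regulator of G protein signalling, differed by 0.33, and Dusp8, a phosphatase that acts on MAP kinases, by 0.36. All 3 were high in the mouse 1 library labelled Axin2+, low in the other 2 with that label, and intermediate in the 3 labelled Axin2-.

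Among 10 other cytokine genes listed with the interleukin-6 family, 9 of which signal through gp130, 6 had enough counts to test. Of these 6, 1 was called higher in libraries labelled Axin2+, against 14.5% of all tested genes, with a median log2 fold change of 0.25. The one was Ctf1, which encodes cardiotrophin-1, a ligand that also uses LIFR. Ctf1 had 7.11, 5.27 and 5.96 CPM in libraries labelled Axin2+, against 0.583, 1.14 and 1.77 CPM in libraries labelled Axin2-. Every library labelled Axin2+ was above every one labelled Axin2-, with a log2 fold change of 2.39 ± 0.45 (SE; edgeR adjusted p = 0.00871). Il6 and Il11 stayed under 1 CPM in each of the 6 libraries, and Ctf2, Il27 and Il31 were among those with too few counts to test. No gene of this list was called lower by edgeR or DESeq2, and none was lower at an unadjusted p under 0.05.

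Lifr, which encodes the LIF-binding chain (ENSMUSG00000054263, chr15:7090614-7197489, plus strand, mm10), was about 3 times as abundant in the cells labelled Axin2+. It stood at 199.6, 255 and 180.1 CPM in libraries labelled Axin2+ of mice 1, 2 and 3, against 57.2, 64.7 and 75.8 CPM in libraries labelled Axin2-. The lowest library labelled Axin2+ was more than 2-fold above the highest labelled Axin2-. The log2 fold change was 1.68 ± 0.18 (SE), a fold of 3.21, with an edgeR adjusted p of 0.000888, and within mice it was 1.80, 1.98 and 1.25. Of the 16896 tested genes 96.5% had a lower mean CPM than Lifr in libraries labelled Axin2+, and 82.6% in those labelled Axin2-. The genes nearest to it in profile were Krtcap3, Mob3b and Pvrl2, the last of which encodes the adhesion protein nectin-2, with RMS differences of 0.09, 0.10 and 0.11. The summed epithelial markers, given above, were also higher in libraries labelled Axin2+, and their part in the Lifr difference was not tested.

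Il6st, which encodes the shared chain gp130 (ENSMUSG00000021756, chr13:112464070-112510086, plus strand, mm10), was the most abundant member in both fractions and overlapped between them. It had 365, 422 and 438 CPM in libraries labelled Axin2+, against 480, 449 and 410.0 CPM in libraries labelled Axin2-. Of tested genes, 98.8% had a lower mean CPM in libraries labelled Axin2+ and 98.7% in those labelled Axin2-. Its log2 fold change of -0.13 ± 0.14 (SE; edgeR adjusted p = 0.525) changed sign to 0.04 when libraries were scaled by library size alone, and 1 of 3 mice had more in the cells labelled Axin2+. Among the libraries of a fraction Il6st was even, with an SD of log2 CPM of 0.14 in those labelled Axin2+ and 0.12 in those labelled Axin2-.

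Osmr, which encodes the oncostatin M chain (ENSMUSG00000022146, chr15:6813577-6874969, minus strand, mm10), had 16.2, 15.9 and 17.5 CPM in libraries labelled Axin2+. In those labelled Axin2- it had 32.4, 8.91 and 30.3 CPM, so that mouse 2 lay below all libraries labelled Axin2+ and mice 1 and 3 above them. It averaged 16.5 ± 0.87 CPM in libraries labelled Axin2+, against 23.9 ± 13 CPM in libraries labelled Axin2- (SD, n = 3 each), and the log2 fold change was -0.53 ± 0.44 (SE; edgeR adjusted p = 0.406). Leaving out the mouse 2 library labelled Axin2- gave -0.92 with an edgeR adjusted p of 0.00842. Spread was thus wide on the side labelled Axin2-, where the SD of log2 CPM was 1.05, and narrow on the side labelled Axin2+, where it was 0.07. The platelet integrin gene Itga2b, the amino acid transporter gene Slc1a4 and Neurl1b were nearest to Osmr in profile, with RMS differences of 0.24, 0.25 and 0.25.

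Because scaling cancels within a library, the receptor chains were also set against each other in each library. Per kilobase of exon, there were 1.78, 1.61 and 2.36 counts of Il6st for each count of Lifr in libraries labelled Axin2+ of mice 1, 2 and 3, and 8.16, 6.74 and 5.25 in those labelled Axin2-. The log2 ratio of Lifr to Il6st counts was -0.96 ± 0.29 in libraries labelled Axin2+ and -2.77 ± 0.32 in those labelled Axin2- (SD, n = 3 each), a difference of 1.81 or 3.5-fold. It was higher in 3 of 3 mice, and the exact two-sided permutation p of 0.1 is the smallest that 3 against 3 libraries can give. Lifr outnumbered Osmr per kilobase by 13.9, 18.0 and 11.5 to 1 in libraries labelled Axin2+ and by 1.98, 8.16 and 2.81 to 1 in those labelled Axin2-. That log2 ratio differed by 1.99 (exact permutation p = 0.1), with all 3 mice in 1 direction. The Osmr to Il6st log2 ratio was -4.62 ± 0.12 in libraries labelled Axin2+ and -4.43 ± 1.06 in those labelled Axin2- (SD, n = 3 each), a difference of -0.19 (exact permutation p = 1.0) that was smaller than the spread.

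Ranked by level per kilobase of merged exon, the order of the members differed between the fractions. In libraries labelled Axin2+ Il6st led at 36.8 ± 3.47 CPM per kilobase (SD, n = 3 here and below). Stat3 at 21.3 ± 2.38, Lifr at 19.6 ± 3.58 and Cited2 at 19.4 ± 4.89 CPM per kilobase followed with libraries that overlapped between neighbours. Lpar3 came next at 9.94 ± 2.99, then Osmr at 1.37 ± 0.07 and Lif at 1.10 ± 1.6 CPM per kilobase, a last pair whose libraries overlapped. In libraries labelled Axin2- Il6st led again at 40.2 ± 3.18 CPM per kilobase, ahead of Cited2 at 21.1 ± 5.13 and Stat3 at 19.2 ± 2.59, a pair whose libraries overlapped. Lifr was well below these at 6.11 ± 0.87, and Osmr at 1.97 ± 1.07, Lif at 1.40 ± 0.50 and Lpar3 at 0.762 ± 0.54 CPM per kilobase closed the order, with libraries that overlapped between neighbours. Lpar3 thus had the lowest mean in libraries labelled Axin2- and stood above Osmr and Lif in those labelled Axin2+.

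**Figure D2:**
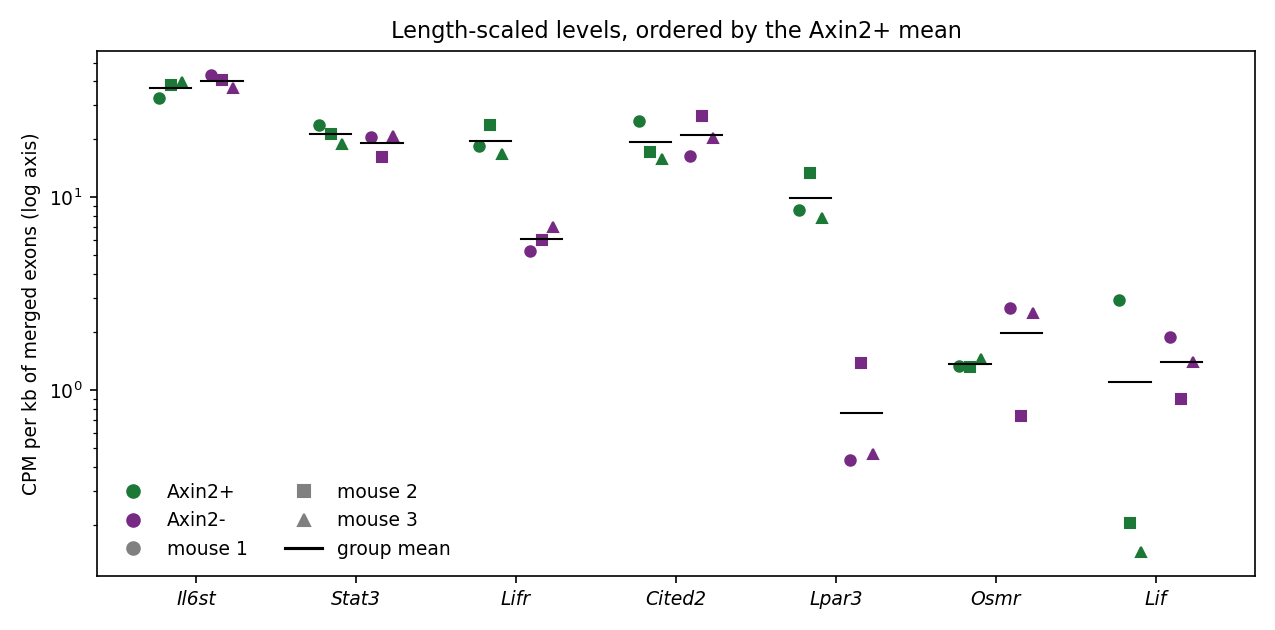
Level of the 7 genes per kilobase of merged exon, in CPM per kilobase on a logarithmic axis, with 1 point per library and the fraction mean as a bar. Il6st is highest in both fractions, at 36.8 CPM per kilobase in libraries labelled Axin2+ and 40.2 in those labelled Axin2-, and Lpar3 has the lowest mean in those labelled Axin2-, at 0.762.

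Of the 5 other receptor chains of this family none was called by the main edgeR fit. At an unadjusted p under 0.05 only Il27ra was lower, which DESeq2 called lower (adjusted p = 0.0339). Without the mouse 3 library labelled Axin2- edgeR called Cntfr higher, with a log2 fold change of 1.11 (adjusted p = 0.0265). Il6ra, the interleukin-6 binding chain, had 68.4, 43.3 and 27.0 CPM in libraries labelled Axin2+, against 50.5, 57.9 and 36.6 CPM in libraries labelled Axin2-. Il11ra1, the interleukin-11 binding chain, had 27.5, 35.2 and 43.0 CPM in libraries labelled Axin2+, against 51.3, 25.9 and 56.9 CPM in libraries labelled Axin2-. Both overlapped between the fractions, and the near-identical copy Il11ra2 makes the Il11ra1 counts uncertain.

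Stat3, the transcription factor downstream of gp130 (ENSMUSG00000004040, chr11:100885098-100939540, minus strand, mm10), overlapped between the fractions. It had 225, 203.5 and 179.9 CPM in libraries labelled Axin2+, against 196, 154 and 198 CPM in libraries labelled Axin2-. The log2 fold change was 0.15 ± 0.15 (SE; edgeR adjusted p = 0.488), and 2 of 3 mice had more in the cells labelled Axin2+. It shares 72 exonic bases with Stat5a on the opposite strand, so a small part of its reads cannot be assigned with certainty. Cyb5r4, Gtpbp2 and Zcchc2 had the nearest profiles, with RMS differences of 0.05 each. RNA levels do not measure phosphorylated STAT3.

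The kinases that act between the receptor and STAT3 gave 1 call in each direction among 10 tested Janus kinase and other STAT genes. Of all tested genes 14.5% were called higher and 12.8% lower. The median log2 fold change of the 10 was 0.05, against -0.01 over all genes tested. Jak2 had 298, 352 and 288 CPM in libraries labelled Axin2+, against 116, 102 and 113 CPM in libraries labelled Axin2-, a log2 fold change of 1.502 ± 0.13 (SE; edgeR adjusted p = 0.000501). Jak1, the kinase most used by gp130, had 237, 223 and 229 CPM in libraries labelled Axin2+, against 348, 375 and 271 CPM in libraries labelled Axin2-. Its log2 fold change of -0.53 ± 0.15 (SE; edgeR adjusted p = 0.0372) was lost under 7 of 15 other settings, among them the fit with mouse as a block (adjusted p = 0.0624), library size alone (0.153) and leaving out any single library other than that of mouse 3 labelled Axin2- (0.0681 to 0.134). Within each of the 3 mice, Jak2 was higher and Jak1 lower in the cells labelled Axin2+.

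Of 16 SOCS, PIAS and phosphatase genes, which restrain the pathway, 2 were called higher and 3 lower, shares near the 14.5% and 12.8% of all tested genes, with a median log2 fold change of -0.09. Socs3, the feedback inhibitor that binds gp130, had 185.5, 37.1 and 54.6 CPM in libraries labelled Axin2+, against 471, 502 and 373 CPM in libraries labelled Axin2-. Its levels did not overlap, and its log2 fold change was -2.28 ± 0.58 (SE; edgeR adjusted p = 0.0272). That call was lost on leaving out any single library other than that of mouse 1 labelled Axin2+, with adjusted p of 0.0574 to 0.0733. Socs1, which inhibits Janus kinases directly, had 7.18, 4.89 and 5.90 CPM in libraries labelled Axin2+, against 20.7, 18.8 and 17.7 CPM in libraries labelled Axin2-, a log2 fold change of -1.67 ± 0.20 (SE; edgeR adjusted p = 0.00161). Socs5 was lower by a smaller amount, at 32.9, 34.1 and 39.1 CPM in libraries labelled Axin2+, against 60.2, 67.5 and 52.9 CPM in libraries labelled Axin2- (edgeR adjusted p = 0.00778). The calls in the other direction were Socs7, with a log2 fold change of 0.78 ± 0.12, and Cish, an inhibitor best known downstream of STAT5, with 1.32 ± 0.37 (SE; edgeR adjusted p = 0.00362 and 0.0363). The Cish call was lost under 5 of 15 other settings, among them the fit with mouse as a block (adjusted p = 0.0901) and leaving out the library of mouse 1 or 2 in either fraction (0.0703 to 0.0998). The count of genes called higher was 1 without any of those same 4 libraries and 4 under library size alone.

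Among 17 genes listed as targets of STAT3, 5 were called lower and 1 higher, with a median log2 fold change of -0.67 against -0.01 over all genes tested, of which 12.8% were called lower. Egr1, an immediate-early transcription factor, had 1717, 570.5 and 730 CPM in libraries labelled Axin2+, against 4402, 7460 and 5008 CPM in libraries labelled Axin2-, a log2 fold change of -2.48 ± 0.46 (SE; edgeR adjusted p = 0.00858). Myc, a growth regulator, had 63.0, 72.7 and 79.8 CPM in libraries labelled Axin2+, against 158, 217 and 147 CPM in libraries labelled Axin2-, a log2 fold change of -1.28 ± 0.18 (SE; edgeR adjusted p = 0.0028). The repressor gene Bcl6 was lower by 0.91 ± 0.16 on the log2 scale (edgeR adjusted p = 0.00731), and Socs3 and Junb, a subunit of AP-1, were the other two. The Junb call (edgeR adjusted p = 0.0473) was lost under 7 of 15 other settings (adjusted p = 0.0611 to 0.133). Hif1a, the hypoxia-inducible subunit, was the one called higher, at 233, 269 and 227 CPM in libraries labelled Axin2+, against 127, 100.3 and 104 CPM in libraries labelled Axin2-. The number called lower depended on single libraries: it was 11 without the mouse 1 library labelled Axin2+, 3 without any one of the other 5 libraries, and 8 with mouse as a block. The summed level of the list was 6518, 2347 and 2539 CPM in libraries labelled Axin2+, against 11050, 15020 and 10800 CPM in libraries labelled Axin2-. The sum was highest for mouse 1 among libraries labelled Axin2+, with 2389 CPM from Fos and 1717 CPM from Egr1, while Myc was lowest in that library and Bcl6 and Hif1a lay within the range of the other 2 there. Fos had 2389, 469 and 529 CPM in libraries labelled Axin2+, against 3682, 4690 and 3219 CPM in libraries labelled Axin2-, with an edgeR adjusted p of 0.078 in all libraries and 0.000792 without that of mouse 1 labelled Axin2+. Summed stromal and smooth muscle markers were lower in libraries labelled Axin2+ as well, and their part in these differences was not tested.

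**Figure D3:**
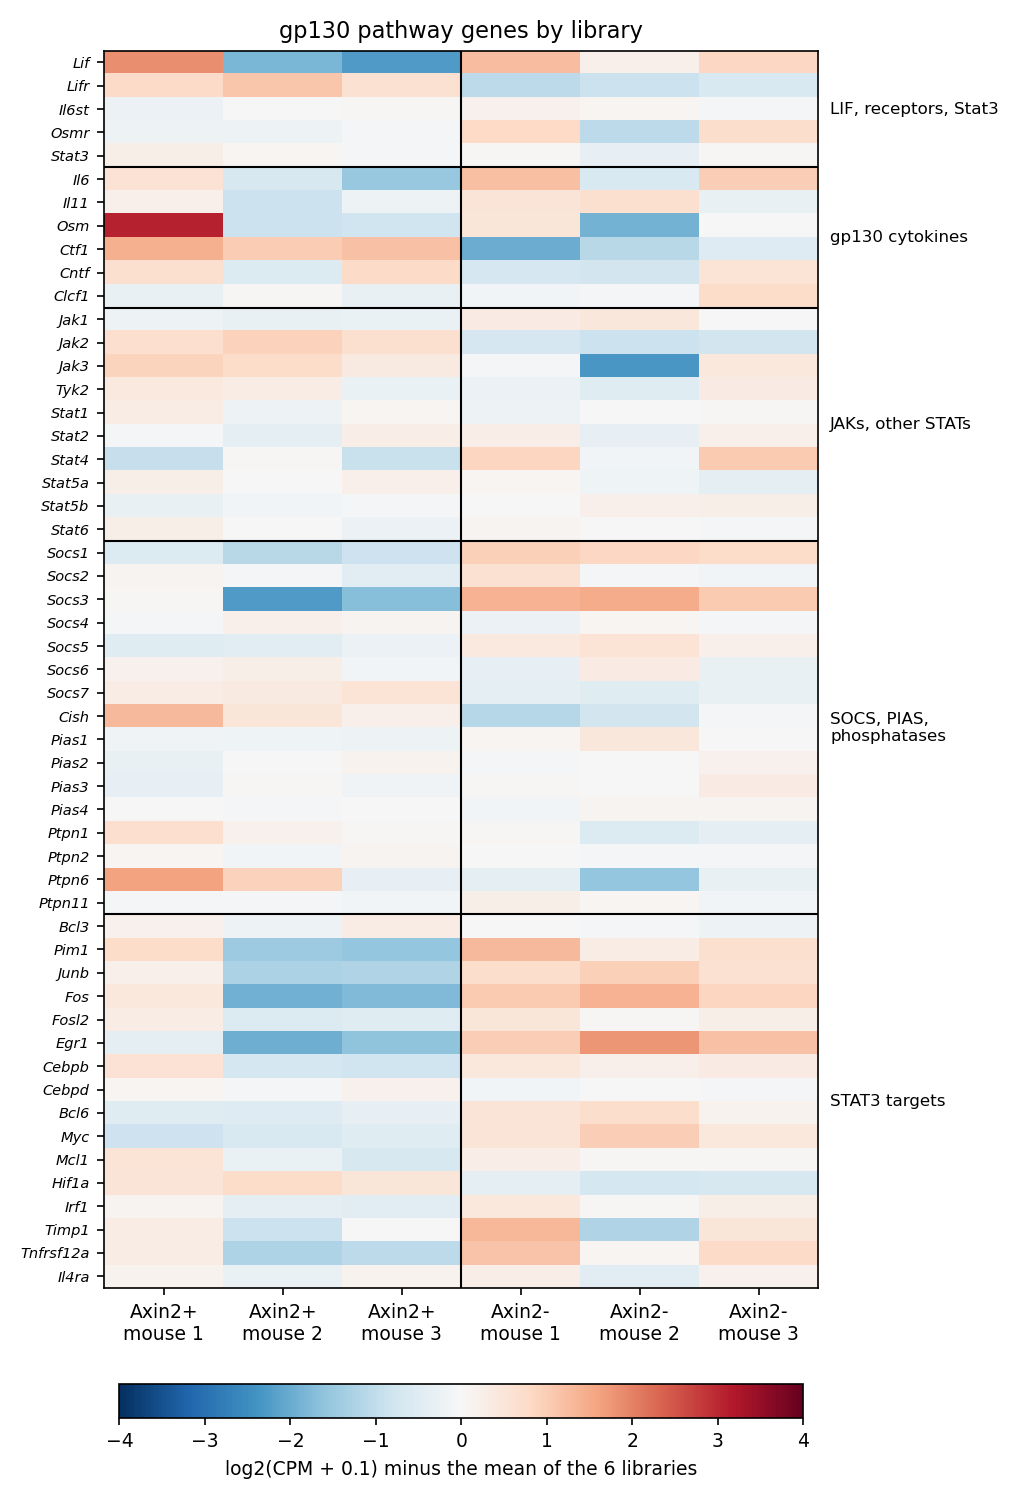
Heat map of LIF, its receptors, gp130 cytokines, Janus kinases, inhibitors and STAT3 targets, as log2(CPM + 0.1) minus the mean of the 6 libraries, with libraries labelled Axin2+ on the left and Axin2- on the right. Lif and Osm are red in the mouse 1 library labelled Axin2+ and blue in the other 2 with that label, while Lifr and Jak2 are red in all 3.

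Lpar3, the implantation receptor for lysophosphatidic acid (ENSMUSG00000036832, chr3:146220963-146286186, plus strand, mm10), had the largest fold change of the 7 members. It stood at 21.3, 32.9 and 19.3 CPM in libraries labelled Axin2+ of mice 1, 2 and 3, from 1235, 1744 and 1035 counts. In those labelled Axin2- it stood at 1.07, 3.41 and 1.15 CPM, from 55, 195 and 56 counts. Mouse 2 was the highest in both fractions, and the lowest library labelled Axin2+ was several-fold above the highest labelled Axin2-. The log2 fold change was 3.70 ± 0.52 (SE), a fold of 13, with an edgeR adjusted p of 0.00299, and it was 4.32, 3.27 and 4.06 within mice 1, 2 and 3. Without the mouse 2 library labelled Axin2- the log2 fold change was 4.46 (edgeR adjusted p = 0.000962). Of all tested genes 60.0% had a lower mean CPM in libraries labelled Axin2+ and 21.6% in those labelled Axin2-. The luminal markers, at 403 to 587 CPM in libraries labelled Axin2+ and 28.7 to 73.0 CPM in those labelled Axin2- in sum, moved in the same direction, and their part in the Lpar3 difference was not tested.

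Nearest to Lpar3 in profile were genes of epithelial cells, Tspan8, a tetraspanin, and Wfdc2, a secreted protein, with RMS differences of 0.23 each. Tspan8 had 68.5, 79.4 and 58.4 CPM in libraries labelled Axin2+, against 3.54, 9.0 and 2.47 CPM in libraries labelled Axin2-. As with Lpar3, mouse 2 was the highest in each fraction.

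Of 10 other genes of lysophosphatidic acid supply, turnover and sensing, 3 were called higher and 3 lower, against 14.5% and 12.8% of all tested genes, and the median log2 fold change was 0.05. Among receptors, Lpar6 was higher, at 17.6, 18.2 and 14.9 CPM in libraries labelled Axin2+, against 5.54, 7.34 and 6.43 CPM in libraries labelled Axin2- (log2 fold change 1.39 ± 0.20, SE; edgeR adjusted p = 0.00282). Lpar1 was lower, at 21.4, 38.3 and 44.2 CPM in libraries labelled Axin2+, against 120.4, 122.6 and 94.2 CPM in libraries labelled Axin2- (log2 fold change -1.70 ± 0.27, SE; edgeR adjusted p = 0.00485). Lpar4 was lower too, with a log2 fold change of -2.71 ± 0.46 (SE; edgeR adjusted p = 0.00565), and had under 2 CPM in each library labelled Axin2+. The receptor calls thus ran in both directions, with Lpar3 and Lpar6 on one side and Lpar1 and Lpar4 on the other.

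Pla2g4a, which encodes the cytosolic phospholipase that frees arachidonic acid for prostaglandin synthesis, was higher as well. It had 107, 119 and 77.2 CPM in libraries labelled Axin2+, against 21.0, 24.2 and 17.0 CPM in libraries labelled Axin2-, a log2 fold change of 2.28 ± 0.21 (SE; edgeR adjusted p = 0.000584). Lipid phosphate phosphatases, which break lysophosphatidic acid down, split: Ppap2c (Plpp2) had a log2 fold change of 1.83 ± 0.33 (SE; edgeR adjusted p = 0.0078) and Ppap2b (Plpp3) of -1.39 ± 0.37 (SE; edgeR adjusted p = 0.0304). The Ppap2b call was lost without the mouse 2 library labelled Axin2+ or without any one of those labelled Axin2- (adjusted p = 0.0598 to 0.0924). Enpp2, the gene of autotaxin, which makes lysophosphatidic acid, had 25.8, 97.9 and 124 CPM in libraries labelled Axin2+, against 117, 139 and 214 CPM in libraries labelled Axin2- (edgeR adjusted p = 0.235).

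Cited2, the co-regulator (ENSMUSG00000039910, chr10:17723218-17725674, plus strand, mm10), also overlapped between the fractions. It had 61.3, 42.4 and 39.0 CPM in libraries labelled Axin2+, against 40.2, 65.2 and 49.8 CPM in libraries labelled Axin2-. The log2 fold change of -0.12 ± 0.24 (SE; edgeR adjusted p = 0.743) turned positive, at most 0.08, under library size alone and without the mouse 3 library labelled Axin2+ or that of mouse 2 labelled Axin2-. The highest library came from mouse 1 among those labelled Axin2+ and from mouse 2 among those labelled Axin2-. Tnfaip8, Blvrb and Fth1, the ferritin heavy chain gene, were nearest to it in profile, with RMS differences of 0.05, 0.08 and 0.11.

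Of the 9 genes listed as CITED family members and partners, 5 could be tested, 2 were called higher and 1 lower, against 14.5% and 12.8% of all tested genes, with a median log2 fold change of 0.15. The paralog Cited4 had 49.9, 52.4 and 67.4 CPM in libraries labelled Axin2+, against 6.59, 4.88 and 6.20 CPM in libraries labelled Axin2-, a log2 fold change of 3.26 ± 0.20 (SE; edgeR adjusted p = 0.000222). Hif1a, the factor that CITED2 limits, was the other gene called higher, with a log2 fold change of 1.14 ± 0.14 (SE; edgeR adjusted p = 0.00161). Tfap2c, which encodes an AP-2 factor, was called lower by 1.62 ± 0.35 on the log2 scale (edgeR adjusted p = 0.0149), a call lost without the mouse 2 library labelled Axin2+ (adjusted p = 0.0621). The co-activator genes Ep300 and Crebbp, with log2 fold changes of 0.15 ± 0.12 and -0.23 ± 0.14 (SE), did not pass the test.

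Other implantation genes were read by the compartment in which they act. Of 17 listed epithelial genes 15 had enough counts to test, and 9 were called higher in libraries labelled Axin2+, against 14.5% of all tested genes, with a median log2 fold change of 1.76. None was called lower by the main edgeR fit, while 1 was lower at an unadjusted p under 0.05 and DESeq2 called 1 lower. Msx1, a homeobox gene needed for a receptive uterus, had 449, 618 and 570.0 CPM in libraries labelled Axin2+, against 22.5, 33.5 and 29.1 CPM in libraries labelled Axin2- (edgeR adjusted p = 0.000192). Ihh, the hedgehog ligand that signals from epithelium to stroma, had 43.3, 50.9 and 80.6 CPM in libraries labelled Axin2+, against 1.40, 1.96 and 0.618 CPM in libraries labelled Axin2- (edgeR adjusted p = 0.000546). Foxa2, the gland transcription factor on which Lif production depends in mice, had 20.5, 23.4 and 25.8 CPM in libraries labelled Axin2+, against 0.272, 0.262 and 0.0206 CPM in libraries labelled Axin2- (edgeR adjusted p = 0.000561). Klf5, an epithelial factor needed for implantation, had a log2 fold change of 2.96 ± 0.24 (SE; edgeR adjusted p = 0.00039). Foxa2 was thus high in all 3 libraries labelled Axin2+, while Lif was high in 1 of them. Summed epithelial markers differed in the same direction, and their part in these differences was not tested.

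Of 12 listed stromal genes of implantation, 4 were called lower and 1 higher, against 12.8% lower and 14.5% higher among all tested genes, with a median log2 fold change of -1.22. Ptch1 and Gli1, a receptor and a transcription factor that respond to hedgehog ligands, had log2 fold changes of -1.62 ± 0.29 and -1.64 ± 0.33 (SE; edgeR adjusted p = 0.00706 and 0.0116). Ptch1 had 158, 238 and 256 CPM in libraries labelled Axin2+, against 674, 882 and 455 CPM in libraries labelled Axin2-. Nr2f2, the stromal factor COUP-TFII, and Bmp2, a growth factor of decidualisation, were the other genes called lower, with edgeR adjusted p of 0.0229 and 0.0449. The call of Nr2f2 was lost without the library of mouse 2 of either fraction (adjusted p = 0.0534 and 0.0564), and that of Bmp2 under 7 of 15 other settings, among them mouse as a block (0.0993). The count called lower was 2 without the library of mouse 2 of either fraction and 8 by DESeq2. Fkbp4, a co-chaperone of the progesterone receptor, was called higher, with a log2 fold change of 1.07 ± 0.17 (SE; edgeR adjusted p = 0.00393). The stromal fibroblast markers, which share Nr2f2, Hand2 and Hoxa11 with this list, were lower in the same libraries, and their part was not tested.

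**Figure D4:**
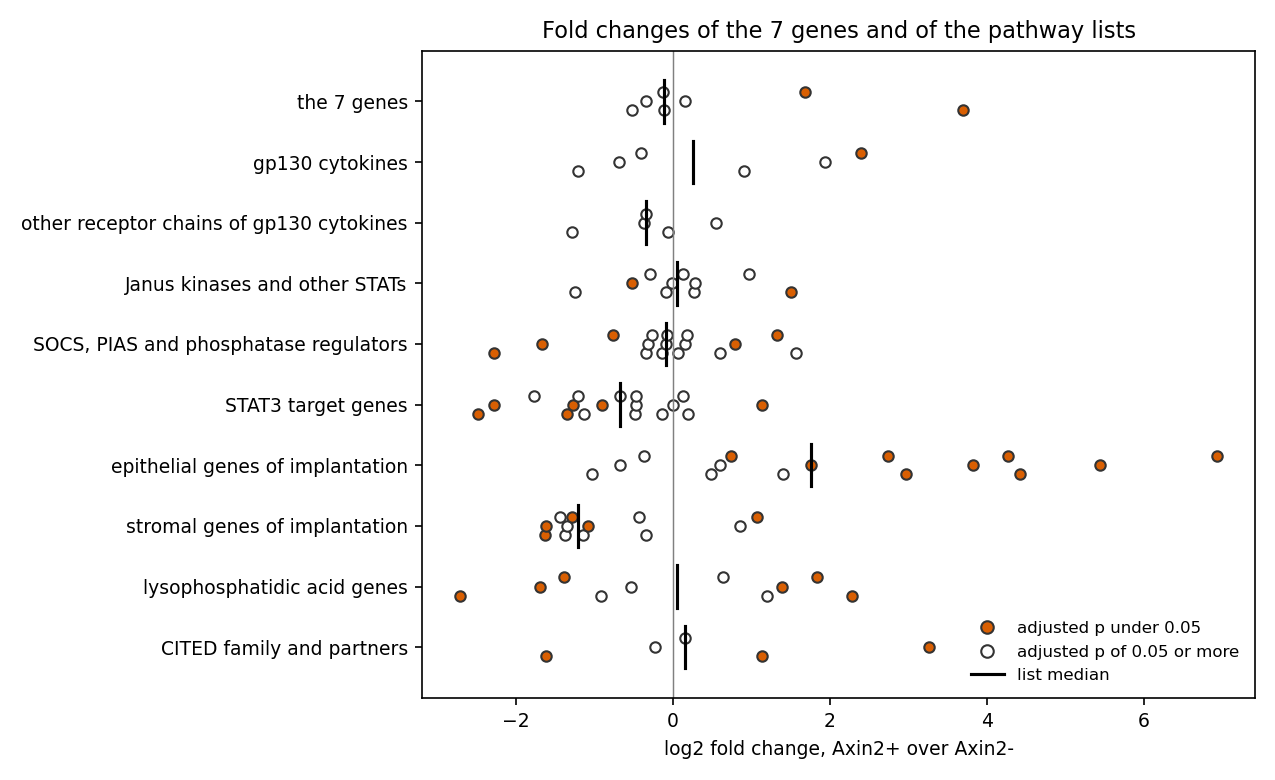
Log2 fold change, Axin2+ over Axin2-, of every tested gene in the members' list and the 9 pathway lists, 1 point per gene, with filled points for an edgeR adjusted p under 0.05 and a bar for the list median. The median is 1.76 for the epithelial genes of implantation, -0.67 for STAT3 targets and -1.22 for the stromal genes of implantation.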

How the data were processed

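For each of 6 libraries the authors deposited gene counts as whole numbers. The mm10 build and edgeR 3.22.5, StringTie 1.3.3, featureCounts 1.5.3 (Subread), STAR 2.5.3a and bcl2fastq 2.20.0.422 appear in the submitters' processing notes. The annotation and the strand setting were not given in the sources used here. The authors' deposited comparison table holds, per the file headers, a log2 fold change and log2 CPM, an F statistic (here a score) and p-values with FDR per gene. A deposited mapping summary gives, per the file headers, the percent of read pairs assigned to 1 feature, 29.26 to 38.86.

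Counts were fitted in R 4.3.3 with edgeR 4.0.16: filterByExpr, TMM factors, the robust quasi-likelihood F test and Benjamini-Hochberg adjustment over 16896 genes, threshold 0.05. CPM are counts scaled to a common library size with TMM factors. SEs came from the F statistics. DESeq2 1.42.0 was an alternative. The fit was tested on simulated data. Within-library ratios of counts used exact permutation tests (SciPy 1.17.1). The median log2 fold change of all tested genes was -0.01, and 0.16 under library size alone. No per-sample column was left without a sample.

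A library was taken to be 1 fraction of 1 mouse. The labels number libraries by mouse but also speak of pooling, so the p-values may measure only the spread between libraries of a pool. Pairing by mouse rests on the library numbers in the labels. Across genes, the 2 libraries of a mouse had correlated deviations from their fraction mean of 0.27, 0.01 and -0.07 for mice 1, 2 and 3, and the highest value between different mice was 0.25. Libraries of a fraction all differed beyond sampling noise, with a chi-square of at least 59.7 per degree of freedom.

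The members, the pathway and marker lists (18 in all) were chosen with earlier results of these data known. Named genes are the members, Axin2, from each pathway list up to 4 genes per direction with the smallest p among those called (or the 2 with the highest CPM), the 2 highest-CPM genes of each marker list, and the 3 genes nearest each member in mean-centred log2 CPM. A gene that this rule names is not reported here. Any other gene named was picked with its values in view. The table held 168 of 169 listed genes, and Adgre1 was not analysed here. Coordinates come from GENCODE M21 (GRCm38, the assembly mm10 names), and promoters from RefSeq (GRCm38.p6), which held all 7 members.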

Additional observations from a re-analysis of the deposited data

How the results depend on the processing

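Over 15 other settings (mouse as a replicate block, 3 other scalings, DESeq2, 3 other count filters, no robust estimation and leaving out each of the 6 libraries), 97 of 105 log2 fold changes of the 7 members kept their direction and side of the threshold, 2 passed it and 6 changed sign. The calls of Lifr (1.53 to 1.86) and Lpar3 (3.43 to 4.46) held in all 15. Leaving out 1 library moved Lif from -2.998 to 0.174, Osmr from -0.92 to -0.21, Cited2 from -0.34 to 0.0827, Il6st from -0.18 to -0.05 and Stat3 from 0.04 to 0.23. With library size alone, Il6st was 0.0386 and Cited2 0.0465. The difference of the Osmr to Il6st log2 ratio ranged from -0.80 to 0.15, that of Lifr to Il6st from 1.65 to 1.97 and that of Lifr to Osmr from 1.57 to 2.59. With mouse as a replicate block the log2 fold changes were -1.61 for Lif (edgeR adjusted p = 0.235), 1.68 for Lifr (0.00537) and 3.87 for Lpar3 (0.00248), and the block changed no call of a member. Calls of Jak1, Cish, Bmp2, the STAT3 targets and the macrophage and endothelial markers that changed with the block are given above. Pim1 gained a call under the block (edgeR adjusted p = 0.0354). Sgk1, listed among the epithelial genes of implantation, was called lower there, with a log2 fold change of -1.09 (edgeR adjusted p = 0.00593). Apart from these, the block changed no other call of a named gene. Genes called higher numbered 2447, 1491 to 2304 without 1 library, 2085 with the block and 3120 by DESeq2. Those called lower numbered 2171, 1053 to 1911 without 1 library, 1869 with the block and 2992 by DESeq2. In the paired form of the ratio test, 3 mice cannot give a p under 0.25. The causes of these changes were not tested. Depth was at least 49714402 counts per library, so for Lif the spread between libraries, not its 34 to 743 counts, limits the comparison, and 3 libraries a fraction limit all others.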

Other observations

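The authors' deposited table gave log2 fold changes of 1.67 for Lifr (FDR 0.000964), 3.69 for Lpar3 (FDR 0.00279) and -0.36 for Lif (FDR 0.828). In the authors' deposited table Osmr stood at -0.54, Il6st at -0.14, Stat3 at 0.14 and Cited2 at -0.13, with FDR values of 0.388 to 0.720.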
